A study of Mus musculus with 6 samples.

Results

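A set of 34 genes for endoplasmic reticulum (ER) chaperones and ER-associated degradation (ERAD) was followed in B16F10 cells depleted of OSGEP. The members were chosen by symbol from a list of ER genes drawn up by role with earlier results of these data known, and no measured value entered the rule, out of 55487 genes in the count table. By role they fell into 16 folding genes, 10 ERAD genes, 5 sensor and regulator genes and 3 translocon genes. A total of 33 of the 34 passed the filter on low counts, among 12669 genes tested. The ERAD gene Derl3 was the exception, with 0 counts in all 6 libraries.

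B16F10 is an established mouse melanoma cell line, and no other genetic change is given for either group. The shCtr cells (n = 3) carried a scramble shRNA and the shOSGEP cells (n = 3) carried the hairpin numbered 2 against Osgep, whose product is the KEOPS enzyme that places t6A on tRNAs. Per the methods of the study, both hairpins were delivered by lentivirus, cells were selected with puromycin, and RNA was taken from 3 separate infections. A single hairpin against Osgep was sequenced, so an effect of the hairpin itself and an effect of OSGEP loss cannot be told apart.

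Proteins that enter the ER through the Sec61 channel are folded there by the Hsp70 chaperone BiP (Hspa5), the Hsp90 chaperone GRP94 (Hsp90b1), the lectin chaperones calreticulin and calnexin, and the protein disulfide isomerases. Chains that fail to fold are passed by EDEM lectins and OS9 to the SEL1L and HRD1 (Syvn1) complex, moved to the cytosol, and degraded by the proteasome. Unfolded proteins are sensed by IRE1 (Ern1), ATF6 and PERK, which raise transcription of chaperone and ERAD genes through XBP1 and cleaved ATF6, and which lower translation and induce ATF4 through phosphorylated eIF2.

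The promoters of chaperone genes are known for the ER stress response element (ERSE), which is bound by NF-Y and ATF6. RefSeq promoters (GRCm38.p6, 250 bases before to 50 bases after the annotated start) were found for 29 of the 34 members and not for Atf6, Derl1, Hyou1, Manf and Sec61a1. Both strands were searched for ERSE, spelled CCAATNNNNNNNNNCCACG, and it was found in 9 of the 29 member promoters (31%) and in 39 of all 32851 promoters (0.119%). The windows around the matches are shown because they cover the best known chaperones of the set, BiP, GRP94, calreticulin and calnexin. Each is printed in the direction in which the element reads CCAAT first, with the fixed letters of the element in capitals, and coordinates are those of the window.
Hspa5 (chr2:34772010-34772058, plus strand, as the gene): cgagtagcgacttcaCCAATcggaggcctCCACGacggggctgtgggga
Hsp90b1, nearer match (chr10:86705518-86705566, plus strand, opposite to the gene): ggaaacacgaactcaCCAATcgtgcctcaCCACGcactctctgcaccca
Hsp90b1, farther match (chr10:86705623-86705671, minus strand, as the gene): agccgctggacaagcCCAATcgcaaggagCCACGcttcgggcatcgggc
Calr (chr8:84847060-84847108, plus strand, opposite to the gene): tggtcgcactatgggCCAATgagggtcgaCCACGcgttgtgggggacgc
Canx (chr11:50325785-50325833, minus strand, as the gene): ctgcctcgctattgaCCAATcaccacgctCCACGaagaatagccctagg
Dnajc3 (chr14:118937812-118937860, plus strand, as the gene): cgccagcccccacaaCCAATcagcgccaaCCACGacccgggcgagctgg
Creld2 (chr15:88819505-88819553, minus strand, opposite to the gene): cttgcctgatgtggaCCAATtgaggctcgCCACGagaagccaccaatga
Pdia6 (chr12:17266476-17266524, plus strand, as the gene): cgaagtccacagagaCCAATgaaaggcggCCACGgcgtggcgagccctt
Syvn1 (chr19:6046517-6046565, plus strand, as the gene): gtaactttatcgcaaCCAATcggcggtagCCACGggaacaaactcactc
Derl3 (chr10:75893227-75893275, minus strand, opposite to the gene): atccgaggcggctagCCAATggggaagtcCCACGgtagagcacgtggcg

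A second form, ERSE-II, was spelled ATTGGNCCACG and stood in 2 member promoters, those of Dnajb11 and Herpud1, against 12 of all promoters (0.0365%). The match of Dnajb11 lay 8 to 18 bases after the start and that of Herpud1 42 to 52 bases before it. Their windows, in the direction of the genes, were as follows.
Dnajb11 (chr16:22857837-22857877, plus strand): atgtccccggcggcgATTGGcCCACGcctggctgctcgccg
Herpud1 (chr8:94386362-94386402, plus strand): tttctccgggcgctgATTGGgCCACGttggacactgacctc

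Other letters separated the members less. The core of the unfolded protein response element (TGACGTGG) was in 0 of the 29 member promoters and in 0.676% of all, and the bare CCACG, which is also part of ERSE and of ERSE-II, was in 23 of 29 and in 32.8% of all. A composite element known for ATF4 (TGATGNAA), added after the data were seen, was in 1 member promoter, that of Herpud1, and in 3.97% of all. The Herpud1 promoter is printed whole because it alone of the 29 held both ERSE-II and this element, which reads on the minus strand 105 to 112 bases before the start. Capitals mark the fixed letters of both matches, which describe the sequence and not a binding event.
Herpud1 promoter (chr8:94386179-94386478, plus strand): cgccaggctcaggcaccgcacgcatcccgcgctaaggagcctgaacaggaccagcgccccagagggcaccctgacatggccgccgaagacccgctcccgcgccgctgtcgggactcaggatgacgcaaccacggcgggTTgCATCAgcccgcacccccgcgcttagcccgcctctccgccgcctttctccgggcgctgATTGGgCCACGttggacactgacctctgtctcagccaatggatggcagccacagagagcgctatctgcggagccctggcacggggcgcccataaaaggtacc

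The libraries held between 18915587 and 29487384 counts. Levels are given as CPM, counts scaled to the size of the library by TMM, in the order of replicates 1, 2 and 3. Osgep, the targeted gene, was measured at 20.6, 58.6 and 21.8 CPM in shCtr against 4.28, 0.542 and 5.52 CPM in shOSGEP, below every control, with a Log2FC of -3.29 (SE 0.876). The 7 melanocyte markers were detected in every library, and 6 of 14 markers of other cells, Ptprc and Dcn among them, were at 0 throughout. Of the other 8, Cd68 (0.504 to 7.47 CPM) and Pdgfra (0.639 to 4.07 CPM) were detected in every library, Csf1r had 13 counts in shOSGEP replicate 2 and none elsewhere, and the 14 together summed to between 5.42 and 8.16 CPM. Replicate 2 stood apart in both groups: shCtr replicate 2 had a TMM factor of 0.690 against 1.043 to 1.138 in the others, and in shOSGEP replicate 2 the melanocyte gene Dct was at 723 CPM against 4880 and 4040 CPM in shOSGEP replicates 1 and 3. Results are therefore also given without replicate 2. In bulk RNA, a change in the make-up of the cells and a change in RNA per cell cannot be told apart.

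For most of the ER genes the difference between shCtr and shOSGEP lay within the spread of the libraries, and no chaperone was among the members whose groups were fully apart. Those were the sensors and regulators Wfs1, Atf6 and Ern1 and the ERAD components Herpud1 and Sel1l, all higher in shOSGEP. Of the 33 tested members, 14 had a positive and 19 a negative Log2FC, with a median of -0.05, against -0.03 over all genes tested. By edgeR, with p-values adjusted over all 12669 genes, 0 members passed an adjusted p under 0.05 and neither did any other gene (0%), while 256 genes had an unadjusted p under 0.05. With DESeq2 the number of genes past the adjusted limit was 14, none of them a member, and with limma-voom, library quality weights and a replicate block it was 1403.

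By the threshold of the study, a Log2FC beyond 0.5 with an unadjusted p under 0.05, 2 members were higher in shOSGEP, Wfs1 and Herpud1, where 1.59% of all genes were. No member (0) was lower by this threshold, which 0.426% of all genes were. Without shCtr replicate 1, without shCtr replicate 3 or without shOSGEP replicate 2, 0 members passed it, and the same held without the pair of replicate 1 or of replicate 3. Without replicate 2 in both groups, Wfs1 and Herpud1 passed it.

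The shOSGEP libraries lay wholly above the shCtr libraries for 5 members, Wfs1, Herpud1, Atf6, Ern1 and Sel1l, which is 15.2% of the 33 tested beside 3.49% of all genes tested. The reverse, all shOSGEP libraries below all shCtr libraries, was seen for 0 members beside 2.87% of all genes. An exact permutation test (two-sided) gave p = 0.1 for each of the 5, which is the smallest p possible with 3 libraries a group.

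Same-numbered libraries deviated together, though only weakly for replicate 3 (correlation 0.196), so the replicate number was also used as a block. With it, 4 members passed the study threshold, all higher (Wfs1, Herpud1, Atf6 and Ern1), beside 2.32% of all genes in that direction. Offsets for GC content and transcript length together with the block also gave these 4, beside 3.88% of all genes. With limma-voom quality weights and the block, the 5 members that did not overlap between groups were the 5 that passed an adjusted p under 0.05, beside 6.73% of all genes that were higher, and 0 members were lower, beside 4.34% of all genes. In that fit both replicate 2 libraries had weights of 0.112 and 0.113 against 1.91 to 4.6 for the others, and the spread rested on 2 residual degrees of freedom with a prior of 902.5, so its small p-values came almost wholly from replicates 1 and 3 and from the spread shared over all genes.

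**Figure D1:**
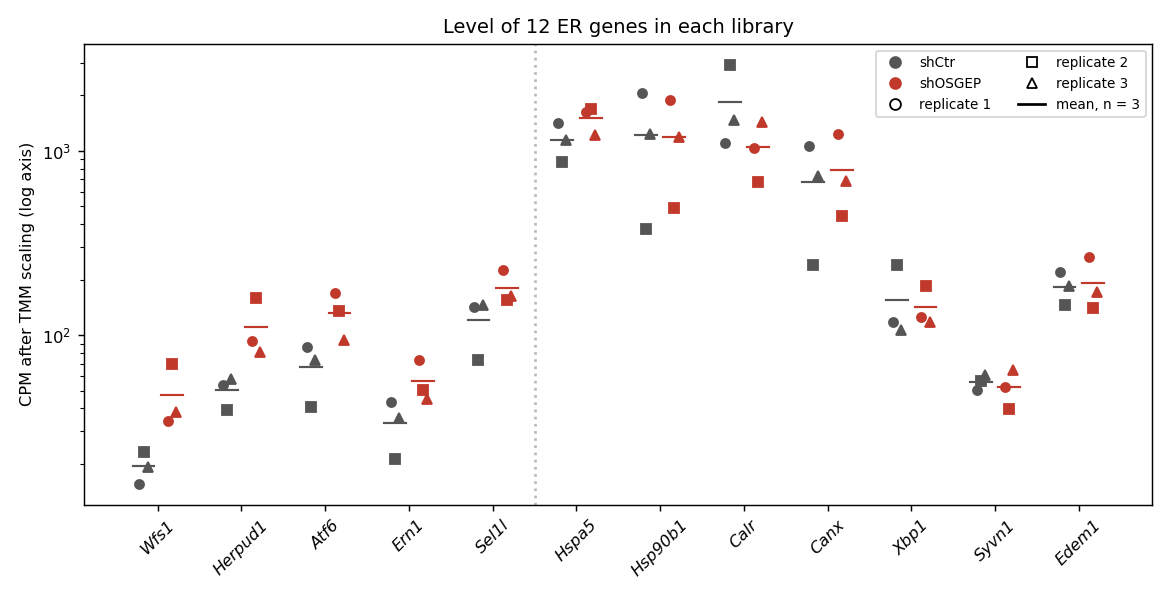
Levels in CPM (log axis) of 12 members in each of the 3 shCtr (grey) and 3 shOSGEP (red) libraries; marker shape gives the replicate number and bars give the means. Left of the dotted line are the 5 members whose groups did not overlap, such as Wfs1 with at most 23.3 CPM in shCtr against least 34.2 CPM in shOSGEP; right of it the groups overlapped.

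The folding genes were taken first. Per kilobase of the longest transcript they held the most abundant members in shCtr, with median levels of 674 CPM per kilobase for Calr, 502 for P4hb, 440 for Hsp90b1, 377 for Pdia6 and 314 for Hspa5. Of the 16 folding genes 5 had a positive and 11 a negative Log2FC, the median was -0.06, 0 passed the study threshold, and all 16 overlapped between groups. The smallest unadjusted p among them was 0.118, for Sdf2l1.

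Hspa5 encodes BiP, the ER Hsp70 and the usual marker of ER stress, and the gene (ENSMUSG00000026864) lies on the plus strand at chr2:34771970-34777547. It was measured at 1410, 867 and 1150 CPM in shCtr against 1630, 1680 and 1220 CPM in shOSGEP. Each shOSGEP library was above its same-numbered control, but shCtr replicate 1 was above shOSGEP replicate 3, so the groups overlapped. Its Log2FC was 0.40 (SE 0.444) with an unadjusted edgeR p of 0.390, and without replicate 2 it was 0.16.

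Hsp90b1, which encodes GRP94, was measured at 2060, 378 and 1240 CPM in shCtr against 1890, 488 and 1190 CPM in shOSGEP. Both groups spanned nearly the same range, and the lowest value in each came from replicate 2. The Log2FC was -0.05 (SE 0.723), less than 0.1 of its standard error, and its sign turned under other settings.

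The lectin chaperones bind glycoproteins with trimmed sugars. Calr, for the luminal calreticulin, was at 1100, 2930 and 1470 CPM in shCtr against 1040, 681 and 1440 CPM in shOSGEP. Canx, for the membrane-bound calnexin, was at 1070, 239 and 728 CPM in shCtr against 1240, 445 and 683 CPM in shOSGEP. The difference for Calr came from replicate 2, which was the highest library of shCtr and the lowest of shOSGEP, whereas replicates 1 and 3 differed by -0.08 and -0.03 on the log2 scale. The Log2FC of Calr was -0.80 (SE 0.554), and without replicate 2 it was -0.05. For Canx the Log2FC was 0.22 (SE 0.643), and shCtr replicate 2 was the lowest of all 6 libraries.

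The co-chaperones and small folding factors spread the widest. Dnajb9 (ERdj4), a J-domain partner of BiP, had the highest Log2FC of the folding genes, 0.50 (SE 0.749), from 24.5, 2.95 and 9.73 CPM in shCtr and 26.7, 15.3 and 10.6 CPM in shOSGEP. Replicate 2 carried it, with a log2 ratio of 2.34 against 0.13 and 0.13 in replicates 1 and 3. Sdf2l1, a BiP complex component, had the lowest Log2FC, -0.96 (SE 0.550), from 62.1, 195 and 58 CPM in shCtr and 50.2, 49.5 and 62.3 CPM in shOSGEP. Its replicates 1 and 3 differed by -0.31 and 0.10 on the log2 scale, and without replicate 2 the Log2FC was -0.09.

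The other 10 folding genes had Log2FC values between -0.65 (P4hb, a protein disulfide isomerase) and 0.49 (Dnajc10, a disulfide reductase with a J domain). Replicate 2 held the widest log2 ratios of both, -1.55 for P4hb and 1.97 for Dnajc10. Without replicate 2 the Log2FC was 0.10 for P4hb, 0.21 for Dnajc10, -0.14 for Creld2 and -0.07 for Pdia6. With all libraries the isomerases Pdia3, Pdia4 and Pdia6 were at -0.15, -0.04 and -0.41. The J-domain genes Dnajb11 and Dnajc3 were at 0.03 and -0.07, the nucleotide exchange factor Hyou1 at -0.01, and the ER stress-secreted factors Manf and Creld2 at -0.24 and -0.51. All of these unadjusted p-values in edgeR's test were above that of Sdf2l1. In the annotation Hsp90b1, Dnajb9, Dnajb11, Manf, Pdia3 and Pdia6 overlap genes on the opposite strand, and since the kit was not stated to keep the strand, part of their reads is of uncertain origin.

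**Figure D2:**
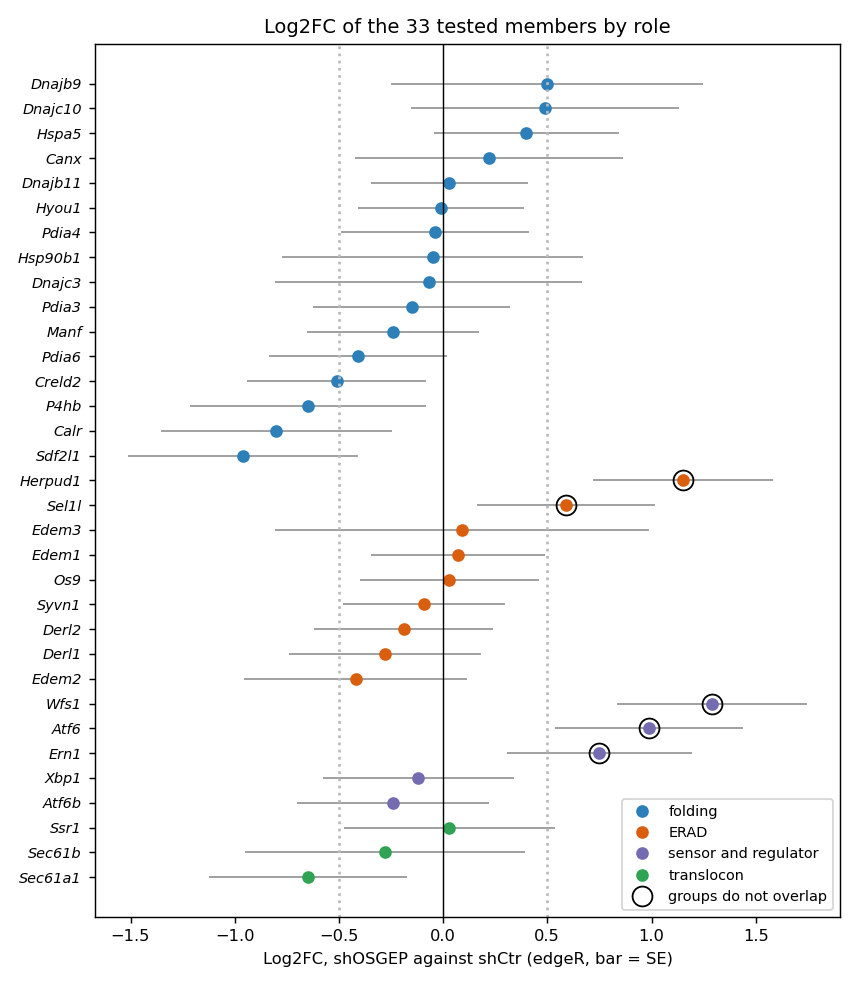
Log2FC of shOSGEP against shCtr for the 33 tested members, ordered within each role, with bars of 1 SE; rings mark the 5 members whose groups did not overlap and dotted lines the Log2FC limits of 0.5 in either direction. The folding genes spread from -0.96 to 0.50, while Wfs1 and Herpud1 reached 1.29 and 1.15.

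Among the ERAD genes, the 9 tested had 5 positive and 4 negative Log2FC values and a median of 0.03. Herpud1 (HERP), a membrane protein that assembles the HRD1 complex and is a known target of ATF6, XBP1 and ATF4, had the highest Log2FC of this role. The gene (ENSMUSG00000031770) lies on the plus strand at chr8:94386438-94395377 (GRCm38). Its levels were 53.5, 39.3 and 57.7 CPM in shCtr against 92.5, 160 and 81.2 CPM in shOSGEP, so the lowest shOSGEP library was above the highest control. The mean was 2.21-fold higher in shOSGEP, 111 ± 42.4 CPM against 50.2 ± 9.62 CPM (SD, n = 3 each). Its Log2FC was 1.15 (SE 0.432), with an unadjusted p of 0.0283 and an adjusted p of 1.00 in edgeR's test. The log2 ratios were 0.79, 2.02 and 0.49 in replicates 1, 2 and 3. Without replicate 2 the Log2FC was 0.65 with an unadjusted edgeR p of 0.0488, and without shOSGEP replicate 2 alone it was 0.80. With quality weights and the block the adjusted p in limma-voom was 1.84e-05. Herpud1 overlaps Gm15890 on the opposite strand, so a part of its reads is of uncertain origin.

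Sel1l encodes the adaptor that holds HRD1 and its substrates together. The gene (ENSMUSG00000020964) lies on the minus strand at chr12:91806043-91849157. Its levels were 142, 73.2 and 146 CPM in shCtr and 226, 155 and 163 CPM in shOSGEP. The groups did not overlap, although shOSGEP replicate 2 was close to shCtr replicate 3. The Log2FC was 0.59 (SE 0.429) with an unadjusted p of 0.205 in edgeR's test, and the log2 ratios were 0.67, 1.08 and 0.16. The call differed between fits: the adjusted p in limma-voom with quality weights and the block was 0.00478, and in edgeR with the block the unadjusted p was 0.0843. Without replicate 2 the Log2FC was 0.43 with an unadjusted edgeR p of 0.199.

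Syvn1, the ubiquitin ligase HRD1 that SEL1L partners, was at 50.3, 56.4 and 60.7 CPM in shCtr against 52.3, 39.9 and 64.7 CPM in shOSGEP. Its values were among the closest of the set, with overlapping groups and a Log2FC of -0.09 (SE 0.389), and its sign turned under other settings. It overlaps Mrpl49 on the opposite strand.

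The mannosidase-like EDEM proteins, which mark glycoproteins for degradation, showed no common direction. Edem1 was at 221, 145 and 185 CPM in shCtr against 266, 141 and 171 CPM in shOSGEP, for a Log2FC of 0.07 (SE 0.418). Edem2 had the lowest Log2FC of the ERAD genes, -0.42 (SE 0.536), from 50.9, 164 and 59.7 CPM in shCtr and 51.4, 78.7 and 74.9 CPM in shOSGEP. For Edem2 the single high value was shCtr replicate 2, and without replicate 2 the Log2FC was 0.20.

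Edem3 was at 0.09, and its shCtr replicate 2 was at 5.26 CPM against 81.9 and 45.6 CPM in the other controls. The lectin Os9 was at 0.03, and Derl1 and Derl2, derlins of the membrane channel, were at -0.28 and -0.19. The third derlin, Derl3, had 0 counts in every library, which allows between 0.116 and 0.147 CPM per library by counting error alone.

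The sensors and regulators had the highest median Log2FC of the 4 roles, 0.75, and 3 of the 5 did not overlap between groups. Wfs1 encodes wolframin, an ER membrane glycoprotein known to restrain ATF6 signalling. The gene (ENSMUSG00000039474) lies on the minus strand at chr5:36966104-36989205 (GRCm38). Its levels were 15.6, 23.3 and 19.3 CPM in shCtr against 34.2, 70.1 and 38.1 CPM in shOSGEP, with a gap between the groups. The mean was 2.45-fold higher, 47.5 ± 19.7 CPM against 19.4 ± 3.81 CPM (SD, n = 3 each). Its Log2FC was 1.29 (SE 0.454), the highest of all members, with an unadjusted p of 0.0209 and an adjusted p of 1.00 in edgeR's test. The log2 ratios of 1.13, 1.59 and 0.98 were the most even of the 5 non-overlapping members. Without replicate 2 the Log2FC was 1.05 with an unadjusted edgeR p of 0.00944, without shOSGEP replicate 2 alone it was 0.92, and the adjusted p in limma-voom with weights and the block was 1.29e-09. Wfs1 overlaps no other annotated gene.

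Atf6 encodes the sensor that is cut in the Golgi to release a transcription factor, and the gene (ENSMUSG00000026663) lies on the minus strand at chr1:170704674-170867771. It was at 86.6, 40.5 and 73.2 CPM in shCtr against 169, 135 and 94.1 CPM in shOSGEP. All shOSGEP libraries were above all controls, with the smallest gap in replicate 3. The mean was 1.99-fold higher and the Log2FC was 0.99 (SE 0.451), with an unadjusted edgeR p of 0.0579, and with the block the unadjusted p was 0.0304. The log2 ratios were 0.97, 1.73 and 0.36, and the adjusted p in limma-voom with weights and the block was 1.18e-06. Without replicate 2 the Log2FC was 0.72 with an unadjusted edgeR p of 0.0935.

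Ern1 encodes IRE1, the kinase and RNase that splices Xbp1 mRNA, and the gene (ENSMUSG00000020715) lies on the minus strand at chr11:106394650-106487852. Its levels were 43.2, 21.3 and 35.5 CPM in shCtr and 73.2, 50.3 and 44.8 CPM in shOSGEP. The groups did not overlap, but the lowest shOSGEP value was only slightly above the highest control. The Log2FC was 0.75 (SE 0.445) with an unadjusted edgeR p of 0.128, and with the block the unadjusted p was 0.0480. The log2 ratios were 0.76, 1.24 and 0.33, and the adjusted p in limma-voom with weights and the block was 0.000263. Without replicate 2 the Log2FC was 0.58 with an unadjusted edgeR p of 0.129.

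The transcription factor genes downstream or beside these sensors did not show the same pattern. Xbp1 was at 118, 240 and 107 CPM in shCtr against 126, 184 and 118 CPM in shOSGEP, for a Log2FC of -0.12 (SE 0.458) and overlapping groups. Atf6b, the paralogue of Atf6, had the lowest Log2FC of this role, -0.24 (SE 0.459), from 78.1, 196 and 104 CPM in shCtr to 83.3, 117 and 119 CPM in shOSGEP. In both genes replicates 1 and 3 had small positive log2 ratios (0.10 and 0.14 for Xbp1, 0.09 and 0.19 for Atf6b) and replicate 2 a negative one. Counts per gene do not separate spliced from unspliced Xbp1 mRNA, so the activity of IRE1 was not measured here.

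The 3 translocon genes had a median Log2FC of -0.28, and none (0) passed the threshold. Sec61a1, the pore-forming subunit, was at 610, 1330 and 732 CPM in shCtr against 599, 434 and 669 CPM in shOSGEP, for a Log2FC of -0.65 (SE 0.475) that was -0.08 without replicate 2. Sec61b, a small subunit, was at 50.3, 170 and 47.4 CPM in shCtr against 37.1, 128 and 55.2 CPM in shOSGEP, for a Log2FC of -0.28 (SE 0.671). Ssr1, of the translocon-associated TRAP complex, was at 217, 89.8 and 168 CPM in shCtr against 240, 96.2 and 149 CPM in shOSGEP, for a Log2FC of 0.03 (SE 0.505). In all 3 genes the groups overlapped, and in Sec61a1 and Sec61b the library farthest from the mean of its group was shCtr replicate 2.

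The members were also compared within each replicate number. In replicate 1, 22 of 33 members were higher in shOSGEP, with a median log2 ratio of 0.09. Replicate 2 had 14 of 33 higher and a median of -0.24, and replicate 3 had 18 of 33 higher and a median of 0.05. For the folding genes the medians were -0.01, -0.19 and -0.03, for the ERAD genes 0.13, -0.24 and 0.09, and for the sensors and regulators 0.76, 1.24 and 0.33. The sensors and regulators were thus the role whose median was positive by more than 0.3 in every replicate.

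A total of 8 members were higher in 3 of 3 same-numbered comparisons, namely Hspa5, Dnajb9 and Dnajc10 beside the 5 non-overlapping members. The background was 17.6% of all genes tested. The 7 members lower in 3 of 3 comparisons were Manf, Creld2, Calr, Pdia3, Pdia6, Derl2 and Sec61a1, beside 17.2% of all genes. All of the 7 had log2 ratios between -0.24 and -0.02 in replicates 1 and 3.

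**Figure D3:**
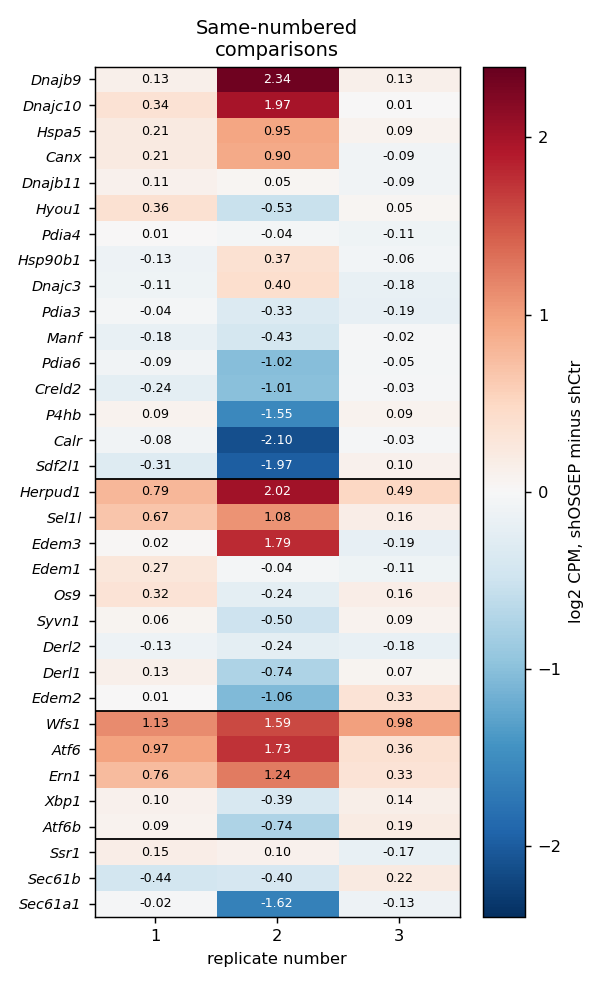
Log2 ratio of CPM, shOSGEP over shCtr, for each tested member (vertical axis, by role) in replicates 1, 2 and 3 (horizontal axis); red is higher and blue lower in shOSGEP. Replicate 2 holds the widest values, from -2.10 for Calr to 2.34 for Dnajb9, and Wfs1, Atf6, Ern1, Herpud1 and Sel1l are red in all 3.

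The wide values of replicate 2 moved in part with base composition. In shCtr replicate 2, several members with GC-poor transcripts were low against the mean of the other controls, by -3.52 on the log2 scale for Edem3 (43.5% GC), -2.35 for Dnajb9 (40.6%) and -2.08 for Hsp90b1 (43.8%). Several members with GC-rich transcripts were high, by 1.70 for Sdf2l1 (56.7%) and 1.54 for P4hb (53.8%). Others did not follow, with 0.03 for Syvn1 (57.4%), 0.05 for Hyou1 (53.8%) and -0.50 for Herpud1 (53.0%), and with 0.57 for the GC-poor Derl2 (42.6%). Spearman's rho between GC content and this deviation was 0.718 over the 33 members and 0.733 over 12658 genes, all from the same libraries. For the deviation of shOSGEP replicate 2 from the mean of shOSGEP replicates 1 and 3, rho was 0.462 over the members and 0.275 over all genes. Between GC content and the log2 ratios of the members it was -0.0117 in replicate 1, -0.549 in replicate 2 and 0.523 in replicate 3. Over all genes these values were -0.0765, -0.637 and 0.291.

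The tested members ran from 40.6% GC (Dnajb9) to 60.3% (Atf6b). The 5 non-overlapping members had 46.0% GC for Atf6, 47.7% for Sel1l, 50.6% for Ern1, 53.0% for Herpud1 and 57.8% for Wfs1. In shCtr replicate 2 their deviations from the mean of the other controls were -0.97, -0.97, -0.88, -0.50 and 0.42 on the log2 scale. With offsets for GC content and length and the block, their Log2FC values were 0.71, 0.46, 0.75, 1.19 and 1.46 in the same order, and the median over the folding genes was -0.22. What set shCtr replicate 2 apart was not tested.

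**Figure D4:**
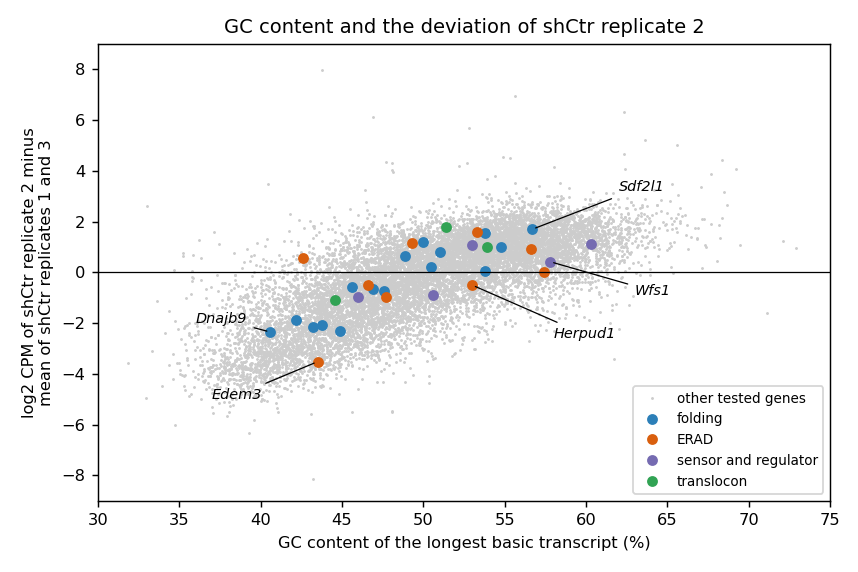
Deviation of shCtr replicate 2 from the mean of shCtr replicates 1 and 3 (log2 CPM, vertical axis) against the GC content of the longest transcript (percent, horizontal axis) for the tested members by role (coloured) and all other tested genes (grey). Edem3 and Dnajb9 lie low at the GC-poor side and Sdf2l1 lies high at the GC-rich side, with a Spearman's rho of 0.718 over the 33 members.

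The promoter elements shown above were set beside the Log2FC of the genes that carry them, as a description. The 8 tested members with ERSE had a median of -0.08, from -0.80 (Calr) to 0.40 (Hspa5), and the 20 tested members with a promoter but without ERSE had a median of 0.03. With ERSE or ERSE-II counted together, the medians were -0.06 for 10 members and -0.01 for 18. Of the non-overlapping members with a promoter entry, Herpud1 held one of these elements, and Sel1l, Ern1 and Wfs1 held neither within this window.

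Other genes of the same pathways were read from lists that do not contain members. Of 34 further ER folding genes 33 were tested, with a median Log2FC of 0.05, and 0 passed the study threshold. In limma-voom with quality weights and the block 6 of them passed an adjusted p under 0.05, all higher, beside 6.73% of all genes. These were Ero1l, Dnajc1, Qsox1, Tmx3, Tmx4 and Fkbp10, and in all 33 the groups overlapped. Fkbp10 was near the floor, with 3, 16 and 10 counts in shCtr against 10, 11 and 17 in shOSGEP. Its Log2FC in edgeR was 0.24 with an unadjusted p of 0.754. The smallest unadjusted p-values in edgeR's test belonged to Qsox1, a disulfide catalyst (Log2FC 0.87, p of 0.114), Dnajc1, a J-domain protein (1.01, p of 0.131), and Ero1l, the oxidase that recharges the disulfide isomerases (1.09, p of 0.131). Among 25 further ERAD genes the median was 0.24 and 0 passed. The lectin gene Erlec1 was at 0.76, the ER membrane scaffold gene Erlin1 at 0.90 and Aup1, which recruits a ubiquitin-conjugating enzyme, at -0.87. Without replicate 2 in both groups Erlec1, Erlin1 and Aup1 were at 0.31, 0.18 and 0.05. Of 31 further genes for targeting, translocation, signal peptidase and N-glycosylation the median was 0.09 and 0 passed. Of these, the oligosaccharyltransferase genes Dad1, Ostc and Rpn1 were at -0.95, 0.67 and -0.63 (SE 0.589, 0.476 and 0.457). Without replicate 2 in both groups they were at -0.06, 0.10 and -0.14. Rpn1 was the 1 gene of this list whose groups did not overlap, lower in shOSGEP, as were 2.87% of all genes.

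Among 12 further sensor and regulator genes the median was -0.14 and 1 passed the study threshold. This was Nfyc, a subunit of the NF-Y factor that binds ERSE, which was lower at 21.7, 13.7 and 42.0 CPM in shOSGEP against 44.6, 113 and 59.9 CPM in shCtr. The groups did not overlap, and the Log2FC was -1.49 (SE 0.574, unadjusted edgeR p of 0.0306). With the replicate block the Log2FC was -1.50 (unadjusted edgeR p of 0.0409), and with the offsets and block it was -1.52 (0.0469). In limma-voom with weights and the block the adjusted p was 2.03e-07. Without replicate 2 in both groups Nfyc did not pass, at -0.71 with an unadjusted edgeR p of 0.130. Without shCtr replicate 2, shOSGEP replicate 1 or shOSGEP replicate 2 alone the p was 0.0760, 0.0894 and 0.10. Without shCtr replicate 1 or shOSGEP replicate 3 it was 0.0213 and 0.0159. Eif2ak3, which encodes PERK, was at 77.3, 16.8 and 60.6 CPM in shCtr against 95.4, 74.7 and 60.7 CPM in shOSGEP, for a Log2FC of 0.58 (SE 0.577). The Xbp1 ligase gene Rtcb was at -0.71 (SE 0.511). Without replicate 2 in both groups the Log2FC was 0.18 for Eif2ak3 and -0.12 for Rtcb.

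A list of effectors of the PERK and eIF2 arm was read for comparison. Most of them are transcription factors and enzymes that are induced when eIF2 is phosphorylated by any of its kinases. Of the 13 genes listed 7 passed the study threshold, all higher in shOSGEP, which is 53.8% beside 6.06% of the tested members. Over all genes tested, 1.59% were higher by this threshold. The median Log2FC of the 13 genes was 1.47. Trib3, a pseudokinase induced by ATF4, was at 23.2, 57.9 and 38.5 CPM in shCtr against 128, 454 and 171 CPM in shOSGEP, for a Log2FC of 2.66 (SE 0.624, unadjusted edgeR p of 0.00258). Nupr1 and Atf4 were at 2.63 (SE 0.760) and 1.47 (SE 0.50). Without replicate 2 in both groups, 8 of the 13 passed, but the median was 0.93, with Trib3 at 2.28, Nupr1 at 1.37 and Atf4 at 0.84. With single libraries left out, 9 passed without shCtr replicate 2 or without shOSGEP replicate 1, and 7 without shOSGEP replicate 3. Only 4 passed without shCtr replicate 1, and 2 (Trib3 and Nupr1) without shCtr replicate 3 or without shOSGEP replicate 2. Without the pair of replicate 1 the number was 6, and without the pair of replicate 3 it was 2, the same genes. The genes were chosen with earlier results of these data known, so the size of this gap is a description and was not tested.

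**Figure D5:**
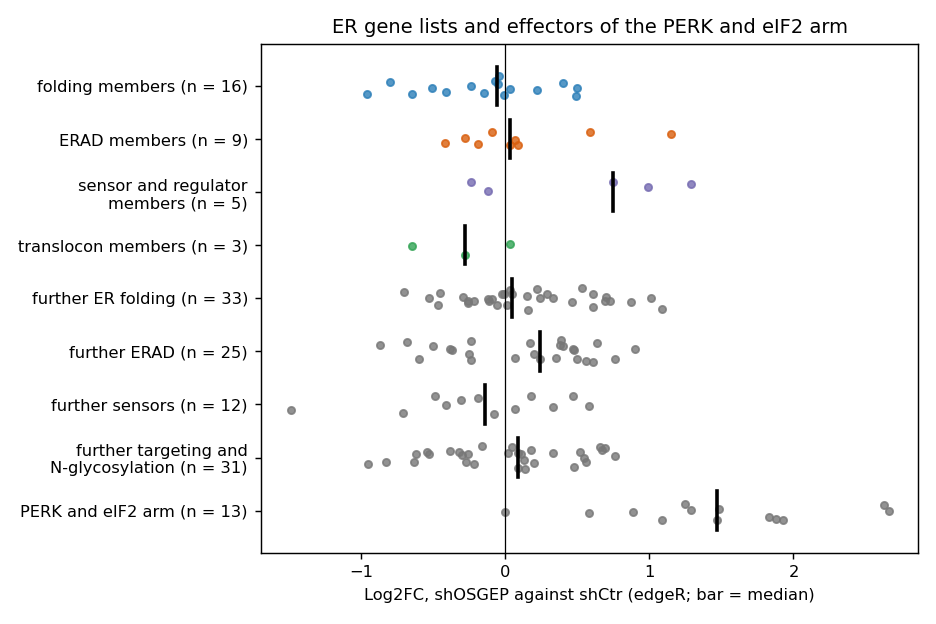
Log2FC of shOSGEP against shCtr (horizontal axis) for each tested gene of the 4 roles of members (coloured) and of 5 further lists (grey), with a black bar at the median of each list. The medians of the folding and ERAD members are -0.06 and 0.03, that of the sensors and regulators is 0.75 and that of the PERK and eIF2 arm is 1.47.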

How the data were processed

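PolyA RNA of 3 infections per group was sequenced as paired reads. The authors trimmed reads with TrimGalore, aligned them to GRCm38 with STAR 2.6.1d and quantified genes with Salmon 1.4.0. The deposited values are raw estimated counts for each Ensembl gene, in whole numbers. The annotation release is not given in the sources used here. Reads shared by near-identical gene copies are split by a model, so such genes carry uncertain values. Of 55487 genes listed, 33666 had no count.

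The labels gave the groups and replicate numbers. All genes were fitted together in edgeR 4.0.16 (R 4.3.3) by the quasi-likelihood F-test, two-sided, without a block, after filterByExpr (minimum count 10, minimum total 15) and TMM scaling, with Benjamini-Hochberg adjustment over 12669 genes. The biological coefficient of variation was 0.566. SE is the Log2FC divided by the square root of F. Log2 ratios used a prior count of 2, and the exact permutation test compared mean log2 CPM. Precision depended on the spread between libraries as well as on depths of 18915587 to 29487384 counts. Hsp90b1, with 7686 to 48447 counts in the libraries, still had an SE of 0.723. The floor of 3 counts covers counting error only, since reads carried no molecular identifiers. P-values measure the spread between these infections of 1 cell line.

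Deviations of same-numbered libraries from their group means correlated at 0.811, 0.557 and 0.196 for replicates 1, 2 and 3, all over 0.1, so the numbers in the labels were taken to pair the libraries. The highest correlation between different numbers was 0.491, for shCtr replicate 3 with shOSGEP replicate 1. It exceeded the 0.196 of the replicate 3 libraries, and the labels do not say what a number marks. Alternatives were DESeq2 1.42.0, RLE and upper-quartile scaling, no filter on low counts, the replicate block, limma-voom 3.58.1 with quality weights and the block, GC and length offsets (natural splines, 5 degrees of freedom, from GENCODE M21 transcripts) with the block, and leaving out each library or same-numbered pair. Scripts were tested on simulated counts.

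The members, lists and tests were chosen with earlier results of these data known. The rule for the members uses symbols and no measured value. Values per library are given for Osgep, for members that passed the study threshold or did not overlap, for the best known members of each role and for those with the extreme Log2FC values. From each further list up to 3 genes with the smallest p were named. Protein sequences were not analysed here.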

Additional observations from a re-analysis of the deposited data

How the results depend on the processing

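Wfs1, Herpud1, Atf6, Ern1, Sel1l, Hspa5, Dnajb9, Calr, Sdf2l1 and Sec61a1 kept their direction under every alternative run. All genes at an adjusted p under 0.05 numbered 14 with DESeq2, 1403 with limma-voom quality weights and the replicate block, and 0 otherwise, also in each fit that left out a library or a pair. Genes past the study threshold numbered 370 with DESeq2, 599 of 21821 tested without a filter on low counts, 373 with the replicate block, 865 with GC and length offsets and the block, 1442 with limma-voom and the block, and 67 to 453 with a library or pair left out. Members past it numbered 4 with the replicate block, 4 with the offsets and the block, 5 with limma-voom and the block, 3 with upper-quartile scaling, and 0 to 2 with a library or pair left out. The replicate block changed no other call among the members described by library.

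The median of the folding genes was -0.22 with the offsets and block and -0.37 to 0.14 with a library or pair left out. In the same fits the ERAD median ran from -0.24 to 0.22 and the translocon median from -0.58 to -0.08, which it also was with limma-voom and the block, while the median of the sensors and regulators kept its sign at 0.51 to 0.98.

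Signs turned for genes near 0 and also for some farther from it, such as Sec61b (-0.28) and Edem2 (-0.42). P4hb, at -0.65 with all libraries, was at 0.10 without replicate 2 in both groups. With limma-voom and the block P4hb was at 0.07. Upper-quartile scaling, which moved the median of all genes to 0.07, gave 0.02 for Hsp90b1, 0.01 for Syvn1 and 0.02 for Xbp1, and the replicate block gave 0.06 for Hsp90b1. Limma-voom with the block gave 0.06 for Syvn1, 0.10 for Xbp1, 0.09 for Edem2 and 0.11 for Atf6b. The offsets with the block gave -0.19 for Canx, -0.21 for Edem1, 0.10 for Syvn1, 0.05 for Xbp1, 0.10 for Atf6b and -0.40 for Ssr1. With a library or pair left out, the Log2FC ran from -0.55 to 0.56 for Hsp90b1, -0.27 to 0.71 for Canx, -0.24 to 0.26 for Edem1, -0.28 to 0.09 for Syvn1, -0.32 to 0.34 for Xbp1, -0.92 to 0.59 for Sec61b, -0.74 to 0.31 for Edem2, -0.49 to 0.23 for Atf6b and -0.37 to 0.33 for Ssr1. It stayed positive for Wfs1 (0.92 to 1.48), Herpud1 (0.65 to 1.44), Atf6 (0.72 to 1.26), Ern1 (0.51 to 0.98) and Sel1l (0.33 to 0.82). Apart from the samples that a fit left out, the cause of these shifts was not tested.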
